A study of Mus musculus with 20 samples.

Results

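Omt2a, Pld1 and Rfpl4 are 3 mouse genes whose transcripts were abundant in the oocyte, were still abundant in the 1-cell embryo and stood near the background by the 8-cell stage. All 5 probe sets that the array annotation gives to these symbols were taken: 1 for Omt2a, 3 for Pld1 and 1 for Rfpl4, of 22626 probe sets that were not controls and 12393 genes with a probe set of their own. The genes were chosen on their levels at the first 4 stages in these same arrays, so those levels and the changes between them are described without a test. All 5 probe sets passed the filter on low values, through the early stages where they were high.

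The study followed mouse preimplantation development with 20 Affymetrix MOE430A arrays, which measure each transcript as the fluorescence intensity of a probe set. There were 5 stages with 4 arrays each: oocyte, 1-cell embryo, 2-cell embryo, 8-cell embryo and blastocyst. The labels name total RNA amplified by in vitro transcription in repeated rounds before hybridization. Strain, age of the females, any hormone treatment, the number of oocytes or embryos per array and the way they were collected are not stated in the labels, and no group is described as mutant or treated.

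A mouse oocyte builds up a store of messenger RNA while it grows and then stops transcribing. After fertilization that store is degraded in steps while the embryo's own genome is switched on, mainly at the 2-cell stage, and transcripts differ in how long they last. Omt2a is a gene named for oocyte maturation whose product is poorly characterised. Pld1 encodes phospholipase D1, which cleaves phosphatidylcholine to phosphatidic acid and choline at membranes and is activated by small GTPases of the Arf family and by protein kinase C. Rfpl4 encodes a RING-finger-like protein of the germ line that was found to bind ubiquitin pathway proteins and cyclin B1 in oocytes.

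The sequences just upstream of the start sites are shown because the 3 genes were chosen for a similar course over the stages, and they let the starts of the genes be compared. RefSeq (mouse assembly GRCm38.p6) held windows for 3 of 3 genes, with 2 start sites for Pld1, and each window is the 250 bases before the start, 5′ to 3′ in the direction of the gene. The Omt2a window is chr9:78314049-78314298 on the minus strand, the Pld1 windows are chr3:27938430-27938679 and chr3:27983921-27984170 on the plus strand, and the Rfpl4 window is chr7:5116912-5117161 on the minus strand. Capitals mark matches to CANNTG (the E-box, the core bound by basic helix-loop-helix factors such as Figla) and to TATAAA (the TATA box), searched on both strands.
Omt2a promoter: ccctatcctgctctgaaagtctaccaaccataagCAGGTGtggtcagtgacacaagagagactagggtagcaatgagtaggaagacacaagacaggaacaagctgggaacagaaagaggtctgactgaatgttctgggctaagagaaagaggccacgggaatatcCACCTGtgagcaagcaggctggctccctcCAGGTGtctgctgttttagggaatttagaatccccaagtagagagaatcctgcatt
Pld1 promoter 1: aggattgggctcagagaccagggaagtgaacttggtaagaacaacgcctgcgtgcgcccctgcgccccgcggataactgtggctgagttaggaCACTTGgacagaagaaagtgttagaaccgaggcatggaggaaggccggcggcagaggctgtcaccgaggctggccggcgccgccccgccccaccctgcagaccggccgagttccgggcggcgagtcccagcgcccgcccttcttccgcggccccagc
Pld1 promoter 2: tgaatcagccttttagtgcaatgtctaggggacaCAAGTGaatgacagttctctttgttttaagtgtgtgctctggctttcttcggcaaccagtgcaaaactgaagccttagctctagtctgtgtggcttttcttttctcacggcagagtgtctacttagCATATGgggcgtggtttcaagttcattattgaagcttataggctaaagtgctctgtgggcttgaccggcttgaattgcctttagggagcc
Rfpl4 promoter: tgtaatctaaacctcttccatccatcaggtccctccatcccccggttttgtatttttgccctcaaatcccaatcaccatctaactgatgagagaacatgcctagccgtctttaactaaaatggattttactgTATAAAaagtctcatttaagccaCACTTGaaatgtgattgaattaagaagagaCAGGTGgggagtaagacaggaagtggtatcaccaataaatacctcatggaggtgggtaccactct

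The Omt2a window held 3 E-box matches, whose first bases lay at -216, -85 and -56 from the start. The Rfpl4 window held 2, at -95 and -65, and a TATAAA match at -118. The first Pld1 window held 1 E-box match, at -157, and the second held 2, at -216 and -90. Matches of this kind were common, since CANNTG occurred in 66.2% and TATAAA in 12.4% of 32851 RefSeq promoter windows of the same length. The other motifs searched, the homeobox cores TAATTG and TAATTA and the canonical E-box CACGTG, which is itself a form of CANNTG, had no match in these 4 windows and occurred in 7.17%, 4.84% and 6.02% of all windows. The windows differed in base composition: GC content was 67.2% with 23 CG dinucleotides in the first Pld1 window, 45.6% with 4 in the second, 49.2% with 1 for Omt2a and 41.2% with 2 for Rfpl4, beside a median GC content of 52.4% over all windows. These are descriptions of letters, and binding was not measured.

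Omt2a had its highest intensities at the 2-cell stage. The 4 oocyte arrays read 900.9, 1033.3, 931.1 and 876.1, a mean of 935 ± 69.1 (SD, n = 4). The 1-cell arrays read 2163.1, 2155.4, 2257.6 and 1906, a mean of 2121 ± 150. The 2-cell arrays read 3244.9, 2890.6, 3178.4 and 2578.4, a mean of 2973 ± 305. No value of a later stage overlapped with those of the stage before, and the mean stood 2.27 times higher in 1-cell embryos than in oocytes and 1.40 times higher in 2-cell than in 1-cell embryos. The 8-cell arrays then read 38.3, 64.2, 35.1 and 33.8, a mean of 42.9 ± 14.4. All 4 lay above 33, and all except the 64.2 of replicate 2 were just above it. An intensity of 33, which 40% of all values do not exceed, serves here as the mark of low signal, since no detection calls were given. The blastocyst arrays read 7.5, 0.7, 9.6 and 4.1, a mean of 5.48 ± 3.91, all under that mark.

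The Pld1 probe set with the highest mean, 1437113_s_at, read 1359.9, 1411.7, 2084.4 and 1605.6 in oocytes, a mean of 1615 ± 330. In 1-cell embryos it read 2741.3, 2815.6, 2669.9 and 2124.7, a mean of 2588 ± 314, above every oocyte array. In 2-cell embryos it read 1977.2, 1929.8, 1866.7 and 1802.7, a mean of 1894 ± 75.9. On the deposited scale these 2-cell values lay under every 1-cell array and inside the range of the oocytes. That position was not shared by all Pld1 probe sets and depended on the scaling of the arrays, as given below. The 8-cell arrays read 10.9, 8.8, 9.5 and 6.2, a mean of 8.85 ± 1.97, and the blastocyst arrays read 4.6, 39.2, 32.7 and 17.6, a mean of 23.5 ± 15.5. All 8-cell values and 3 of the 4 blastocyst values were under 33.

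The other 2 Pld1 probe sets were likewise high through the 2-cell stage and under 33 afterwards, at lower signal. Probe set 1437112_at read 395.4, 392, 326 and 307.2 in oocytes (355 ± 45.2), 468.2, 698.2, 898.8 and 352.6 in 1-cell embryos (604 ± 243) and 598.4, 423.9, 263 and 359.1 in 2-cell embryos (411 ± 141). Its values at these 3 stages overlapped, and then dropped to 3.8, 2.5, 3.6 and 1.3 in 8-cell embryos (2.80 ± 1.15). In blastocysts they were 1.8, 3, 1.3 and 3.8 (2.48 ± 1.14). Probe set 1425739_at was dimmer: 77.9, 104.8, 102.3 and 91.5 in oocytes (94.1 ± 12.3), 145.8, 205, 167.7 and 196.2 in 1-cell embryos (179 ± 27.1) and 217.6, 215.1, 134.4 and 149.3 in 2-cell embryos (179 ± 43.5). Its oocyte values lay under all 1-cell and all 2-cell values, and its 1-cell and 2-cell values overlapped. It read 8, 10, 6.7 and 14.5 in 8-cell embryos (9.80 ± 3.41) and 9, 0.8, 12.3 and 2.1 in blastocysts (6.05 ± 5.51). Levels of different probe sets are not compared with each other, since each binds its target with its own strength.

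Rfpl4, the RING-finger-like gene, had the lowest 2-cell to 1-cell ratio of the members, 0.318. It read 2783.5, 3497.9, 2945.8 and 2716 in oocytes, a mean of 2986 ± 355, and 4539.8, 4807.8, 4937.4 and 4653.5 in 1-cell embryos, a mean of 4735 ± 174. The 2-cell arrays read 2773, 1033.5, 680.9 and 1543.3, a mean of 1508 ± 915. These 2-cell values were all under the 1-cell values, and they were the most scattered of any member at any stage with signal: the highest was 4.07 times the lowest, and the SD was 60.7% of the mean. The 8-cell arrays read 9.7, 2.3, 2.2 and 5.1, a mean of 4.83 ± 3.52, and the blastocyst arrays read 0.5, 0.9, 1.2 and 0.9, a mean of 0.875 ± 0.287.

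**Figure D1:**
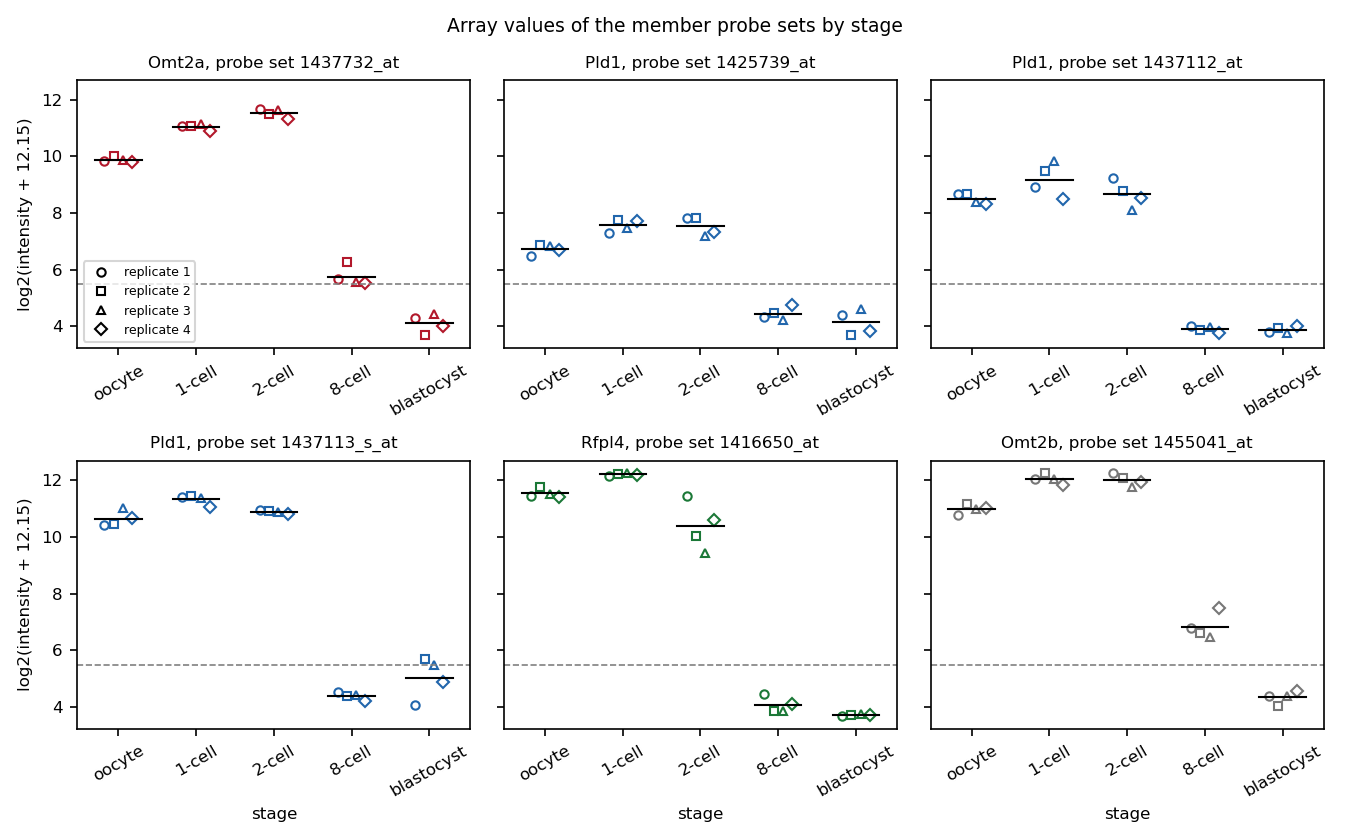
Value of each array as log2(intensity + 12.15) against stage, for the 5 member probe sets and for Omt2b, with 1 symbol per replicate number, a black line at the mean of 4 arrays and a dashed line at the low-signal mark of 33. The members stay high through the 2-cell stage and sit at or under the dashed line from the 8-cell stage on, except Omt2a, whose 4 8-cell values lie above it, the highest at 64.2, and 1 blastocyst array of 39.2 for Pld1 1437113_s_at.

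From oocyte to 1-cell embryo all 5 probe sets had a higher mean on the deposited scale, by 1.17 ± 0.18 on the log2(intensity + 12.15) scale for Omt2a (moderated standard error), 0.69 ± 0.23 for Pld1 1437113_s_at and 0.67 ± 0.25 for Rfpl4. The dimmer Pld1 probe sets stood at 0.84 ± 0.23 (1425739_at) and 0.67 ± 0.24 (1437112_at). Values of the 2 stages did not overlap for 4 of the 5, against 16.5% of all tested probe sets with non-overlapping higher values. In limma 31.4% of the 17193 tested probe sets were called at this transition, meaning a Benjamini-Hochberg adjusted p under 0.05: 16.1% were higher and 15.4% lower, and the median change over all tested was 0.11.

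The sign of this first step depends on how the arrays are scaled. With quantile normalization the changes were 1.20 for Omt2a, 0.89, 0.71 and 0.58 for Pld1 (1425739_at, 1437112_at, 1437113_s_at) and 0.37 for Rfpl4, and with centring on each array's median they were 1.09, 0.77, 0.59, 0.61 and 0.59. When the arrays were scaled to the hybridization controls, RNAs added in fixed amounts before hybridization, Omt2a stood at 0.17, the Pld1 probe sets at -0.07, -0.31 and -0.31 and Rfpl4 at -0.33, while the median of all tested probe sets moved from 0.11 to -0.69. A probe set for 18S ribosomal RNA moved with the same step, from 196 ± 57.6 in oocytes to 12665 ± 1877 in 1-cell embryos. It was down to 639 ± 116 in 2-cell embryos, so it moved with both steps that involve the 1-cell arrays. Its part in the results at either step was not tested. A higher share of the amplified RNA and a higher amount per embryo therefore cannot be told apart.

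**Figure D2:**
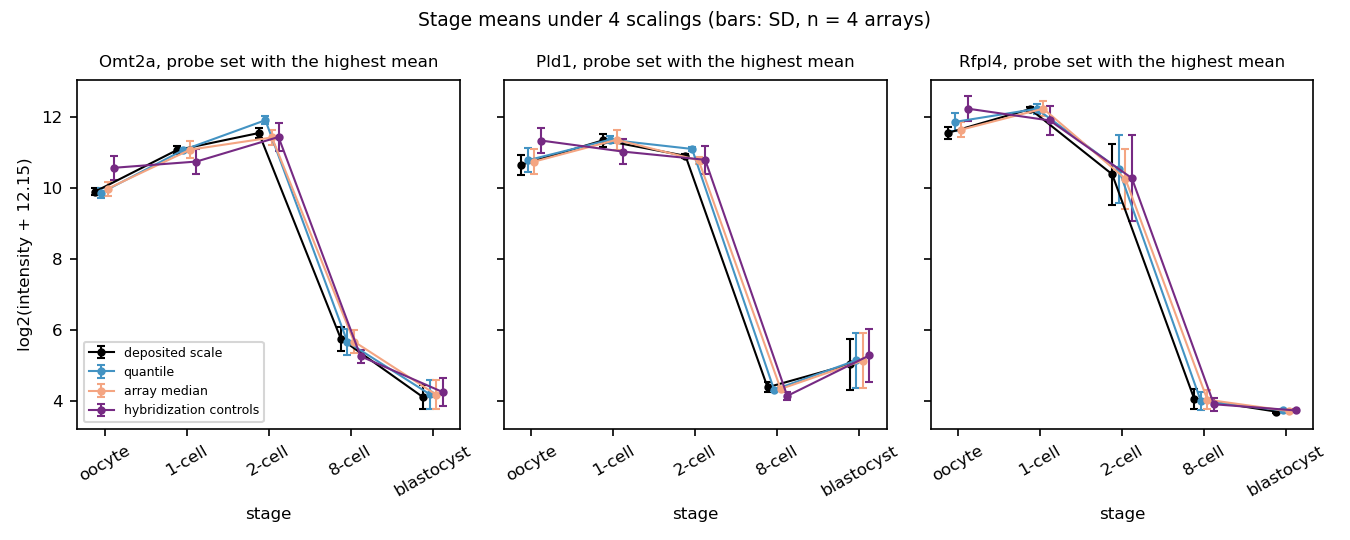
Stage means of log2(intensity + 12.15) with SD bars over 4 arrays, for the probe set with the highest mean of each gene, under the deposited scale, quantile normalization, centring on the array median and scaling to the hybridization controls. The step from oocyte to 1-cell changes sign for Pld1 and Rfpl4 under the hybridization controls (-0.31 and -0.33), while the drop from 2-cell to 8-cell is large under all 4 scalings. The 2-cell mean of Pld1 lies above the oocyte mean with quantile normalization (11.09 and 10.77) and under it with the hybridization controls (10.78 and 11.33).

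At the next step Omt2a was higher in 2-cell embryos by 0.48 ± 0.18 on the log2 scale, Pld1 was at -0.44 ± 0.23 (1437113_s_at), -0.51 ± 0.24 (1437112_at) and -0.01 ± 0.23 (1425739_at), and Rfpl4 was at -1.83 ± 0.25, the 516th lowest change of the 17193. In limma 44.7% of tested probe sets were called at this transition, 23.2% higher and 21.5% lower. Omt2a had no overlap between the 2 stages, where 21.2% of all tested had non-overlapping higher values. Values of the 2 stages did not overlap for 2 of the 4 probe sets with a lower mean log2 value (1437113_s_at and Rfpl4), against 19.9% of all tested with non-overlapping lower values. The signs held under the 3 other scalings for Omt2a (0.35 to 0.84), 1437112_at (-0.65 to -0.31), 1437113_s_at (-0.58 to -0.23) and Rfpl4 (-1.97 to -1.62), but not for 1425739_at, which was at 0.18 under the hybridization controls. Of the log2 difference between 1-cell and 8-cell embryos, 22.5% had been reached by the 2-cell stage for Rfpl4, against 6.33%, 9.75% and 0.458% for the Pld1 probe sets 1437113_s_at, 1437112_at and 1425739_at. Omt2a had its highest level at that stage. The 18S ribosomal RNA probe set fell from 12665 ± 1877 in 1-cell to 639 ± 116 in 2-cell embryos, and its part in these changes was not tested.

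From 2-cell to 8-cell embryo the members had some of the lowest changes on the array, which is what they were chosen for. The change was -6.51 ± 0.23 for Pld1 1437113_s_at, -6.31 ± 0.25 for Rfpl4 and -5.79 ± 0.18 for Omt2a, the 3rd, the 4th and the 13th lowest of 17193 probe sets. Pld1 1437112_at was at -4.77 ± 0.24, the 51st lowest, and 1425739_at at -3.11 ± 0.23, the 304th lowest and the smallest change among the members. No probe set had overlapping values, where 22.1% of all tested had non-overlapping lower values, and 48.4% of all tested were called, 23.2% higher and 25.2% lower. The median change over all tested probe sets was 0.06.

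Since the 8-cell values lie near or under the low-signal mark, the sizes are also given from geometric means with each 8-cell array raised to at least 33. For Omt2a, whose 8-cell values all exceeded 33, the ratio of 2-cell to 8-cell embryos was 71.6. Pld1 1437113_s_at was at least 57.4-fold higher in 2-cell embryos and Rfpl4 at least 39.9-fold, since all their 8-cell values were under that mark. Rfpl4 was at least 143-fold higher in 1-cell than in 8-cell embryos. The other Pld1 probe sets give bounds of 11.9-fold (1437112_at) and 5.30-fold (1425739_at), which are limited by their lower starting signal. In whole embryos, fewer cells holding a transcript and less transcript per cell cannot be told apart.

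**Figure D3:**
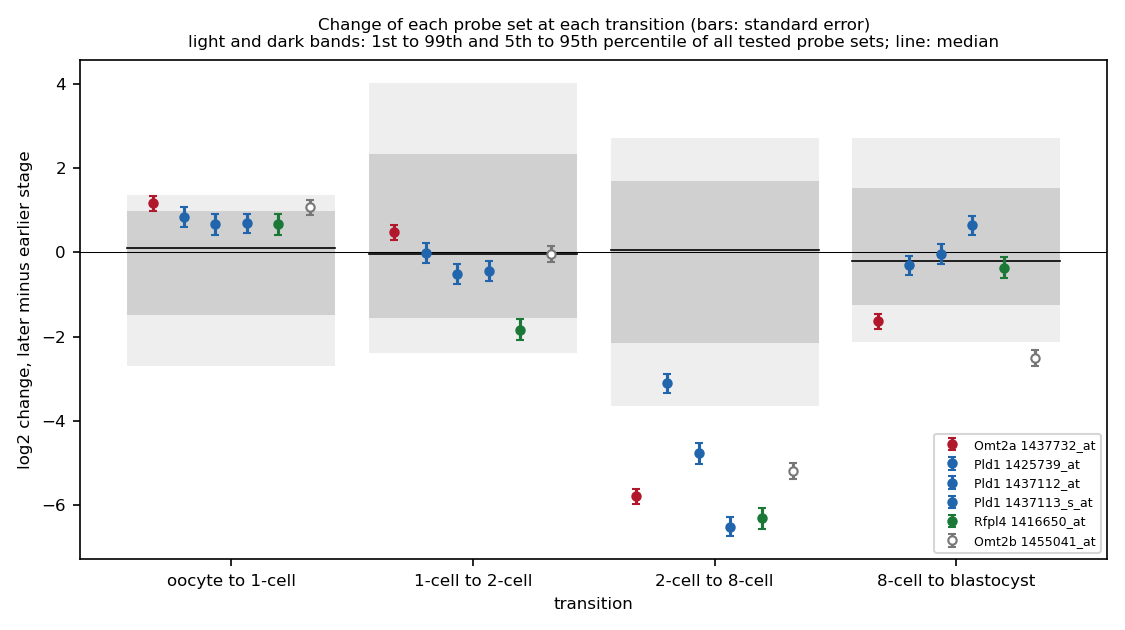
Log2 change of each member probe set and of Omt2b at the 4 transitions, later minus earlier stage, with standard error bars, over bands for the 1st to 99th (light) and 5th to 95th (dark) percentile of the 17193 tested probe sets and a line at their median. At 2-cell to 8-cell all members except Pld1 1425739_at (-3.11) lie below the light band, and at 8-cell to blastocyst only Omt2a (-1.64) and Omt2b (-2.50) among the 6 lie below the dark band.

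The step from 8-cell embryo to blastocyst is the 1 transition that the choice of the genes did not use, although it shares the 8-cell arrays with it. Omt2a fell again, from 42.9 ± 14.4 to 5.48 ± 3.91, a log2 change of -1.64 ± 0.18, with an adjusted p of 3.06e-08 in limma, and it was lower in 4 of 4 blastocyst arrays than in any 8-cell array. All blastocyst values were under 33, so the size is only a bound: against 33 the 8-cell geometric mean was at least 1.25-fold higher. The change stayed called under all 18 alternative settings tried (-2.53 to -0.75), scaling to the hybridization controls and leaving out each array included. Rfpl4 was at -0.36 ± 0.25 (limma adjusted p 0.249), with all 8 values under 10. These standard errors and p-values use a spread pooled over all 5 stages, which was unequal. The log2 SD of Rfpl4 was 0.855 in 2-cell embryos, 0.285 in 8-cell embryos and 0.032 in blastocysts. That of Omt2a was 0.103 in oocytes, 0.342 in 8-cell embryos and 0.334 in blastocysts. With the compared stages alone the limma adjusted p of Omt2a was 0.000269. Omt2a and Rfpl4 had no overlap between the stages, where 37.3% of all tested had none in either direction. At this transition 45.0% of tested probe sets were called, 25.5% lower and 19.5% higher, with a median change of -0.21, and 2 of the 5 member probe sets were among them.

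The 3 Pld1 probe sets did not move alike after the 8-cell stage. Probe set 1437113_s_at was called higher in blastocysts, at 0.65 ± 0.23 with a limma adjusted p of 0.0257, although the values of the 2 stages overlapped and only 1 of 8 arrays, a blastocyst array of 39.2, was above 33. The call was lost without 8-cell replicate 4 (0.58, adjusted p 0.0588), without blastocyst replicate 2 (0.43, adjusted p 0.133) or without blastocyst replicate 3 (0.49, adjusted p 0.107) in the same limma fit. It was also lost with the compared stages alone (limma adjusted p 0.124). The log2 SD of this probe set was 0.726 in blastocysts and 0.139 in 8-cell embryos. Probe sets 1425739_at and 1437112_at were at -0.31 ± 0.23 and -0.03 ± 0.24, with limma adjusted p of 0.283 and 0.927, at values that overlapped and were all under 33. Values this low give no measure of whether Pld1 changed after the 8-cell stage.

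Omt2b, named like Omt2a for oocyte maturation, is the next protein-coding gene after Omt2a on the chromosome in the RefSeq annotation, and 1 probe set measured it. It read 1751.8, 2266.5, 2007.5 and 2064.8 in oocytes (2023 ± 212), 4201, 4930.7, 4227.3 and 3700.8 in 1-cell embryos (4265 ± 506) and 4859.9, 4298.6, 3497.4 and 3982.4 in 2-cell embryos (4160 ± 571). In 8-cell embryos it read 98.4, 85.4, 75.5 and 168.1 (107 ± 41.9), and in blastocysts 8.6, 4, 8.9 and 11.2 (8.18 ± 3.02). The neighbour thus kept its 1-cell level into the 2-cell stage, where Omt2a was higher still, and its 2-cell to 8-cell change of -5.18 ± 0.19 was the 24th lowest of all tested. From 8-cell embryo to blastocyst Omt2b fell by 2.50 ± 0.19 on the log2 scale (limma adjusted p 3.29e-11), again with no overlap. Its blastocyst values were also all under 33, and against 33 the 8-cell geometric mean was at least 3.08-fold higher. The probes' sequences were not used here, so binding of the transcript of 1 gene to the probes of the other was not tested.

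Genes with the profile most like each member were named by Pearson's r of log2 values over the 20 arrays, among 10248 genes with 1 probe set each. The arrays of a stage share that stage, and any gene high before and low after the 2-cell stage scores high, so r is given as a description. For Omt2a they were Brdt, a bromodomain protein of the male germ line (r = 0.993), Omt2b (0.989), the Arf GTPase-activating protein Arap2 (0.989), the endoplasmic reticulum metallopeptidase Ermp1 (0.988) and the small GTPase Arl3 (0.988). Brdt had mean intensities of 1661, 2886, 3076, 42.3 and 9.13 from oocyte to blastocyst. For Pld1 they were Fam241b (0.991), the Golgi calcium and manganese pump Atp2c1 (0.987), the transcription factor E2f5 (0.987), Rhpn2 (0.986) and the retinoblastoma gene Rb1 (0.986). Rb1, whose product restrains E2f factors, had mean intensities of 464, 718, 528, 14.5 and 17.8 from oocyte to blastocyst.

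The genes most like Rfpl4 were Ica1 (r = 0.997), the thioesterase gene Olah (0.995), the carboxypeptidase gene Cpa1 (0.995), the polycystin channel gene Pkd2l2 (0.993) and the Bcl2 family gene Bcl2l10 (0.992). All 5 were lower in 2-cell than in 1-cell embryos, with log2 changes between -1.90 for Bcl2l10 and -1.13 for Ica1, and their 2-cell to 8-cell changes ran from -5.60 for Pkd2l2 to -4.02 for Olah. Among the members themselves r ran from 0.942, between Omt2a and Rfpl4, to 0.986, between Rfpl4 and Pld1 1437112_at.

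**Figure D4:**
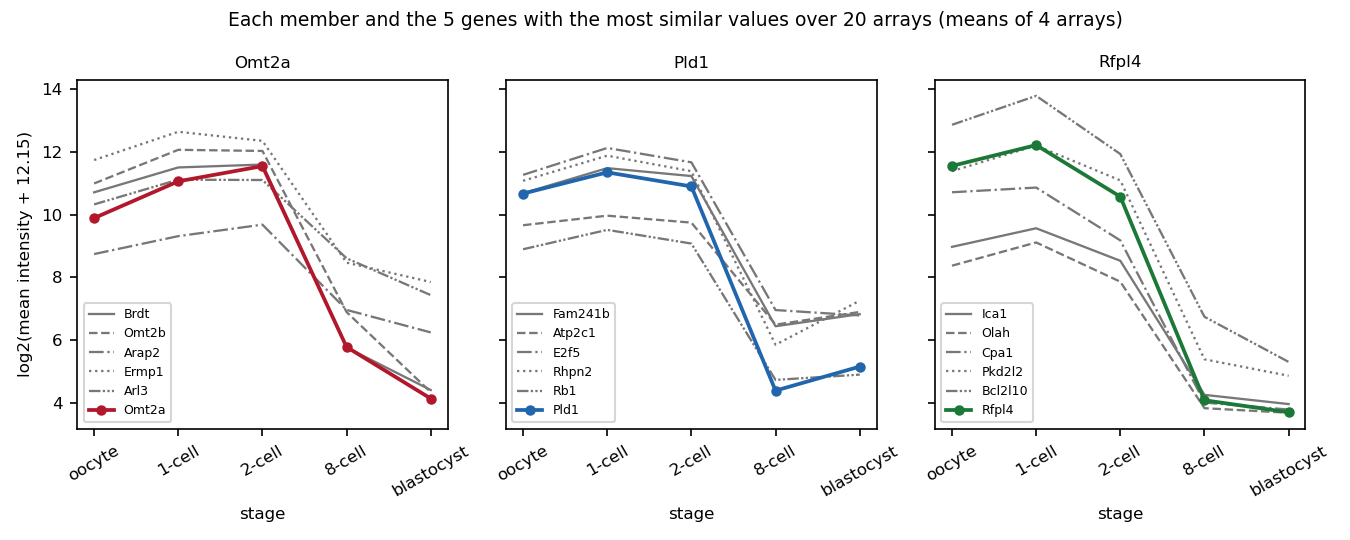
Mean of 4 arrays per stage, as log2(mean intensity + 12.15), for each member (coloured) and the 5 genes with the highest Pearson correlation to it over 20 arrays (grey lines). The genes grouped with Rfpl4 change by -1.90 to -1.13 on the log2 scale from 1-cell to 2-cell, those grouped with Omt2a and Pld1 by less, and no gene returns to its early level in the blastocyst.

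Other oocyte transcripts on the array dropped at different steps. Of a list of 44 oocyte and maternal genes, 25 had a probe set annotated to their symbol alone, and all 25 were tested. Genes of the lists and marker sets below are counted as on the array only in that sense. Of the 25, 0 were called higher and 19 lower at 1-cell to 2-cell (median log2 change -1.19, beside -0.04 for all tested probe sets). At 2-cell to 8-cell 0 were called higher and 23 lower (median -2.44, beside 0.06). At oocyte to 1-cell, on the deposited scale, 10 of the 25 were called higher and 10 lower (80%, beside 31.4% of all tested probe sets). Among those lower were Zp3 (-2.22 ± 0.18), Mos (-1.53 ± 0.42) and Nlrp5 (-1.17 ± 0.21). None of the 25 had a higher 1-cell to 2-cell change than Omt2a, and none had a lower 2-cell to 8-cell change than Rfpl4 or Pld1 1437113_s_at. These ranks rest on the values that chose the members and are a description.

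Within that list transcripts of the same cell took different courses. Mos, the kinase that holds the mature oocyte in metaphase, fell at both cleavage steps, with a log2 change of -4.74 ± 0.42 and then of -1.28 ± 0.42 (limma adjusted p 2.07e-10 and 0.0120). The second of these calls was lost without 2-cell replicate 3 (-0.64, limma adjusted p 0.0972), with the larger constant (-0.64, adjusted p 0.0530) and with the compared stages alone (adjusted p 0.0600). Mos was already low in 2-cell embryos, at 43.5 ± 58.8 with a highest value of 129.1, which limits the size of its second fall. Gdf9, the oocyte growth factor, fell at both steps, with log2 changes of -2.66 ± 0.16 and -2.95 ± 0.16. So did the zona pellucida gene Zp3 (-1.31 ± 0.18 and -2.27 ± 0.18) and the maternal effect gene Nlrp5 (-1.29 ± 0.21 and -3.65 ± 0.21). Bmp15, the partner of Gdf9, also fell at both, with -1.39 ± 0.27 and then -4.92 ± 0.27. The largest 2-cell to 8-cell falls of the list were those of Btg4, an adaptor that brings the deadenylase to maternal mRNA (-6.02 ± 0.23), the oocyte secreted protein gene Oosp1 (-5.64 ± 0.17) and Bcl2l10 (-5.24 ± 0.23). Btg4 had a change of -1.08 ± 0.23 at the step before (limma adjusted p 0.000384), a call lost with quantile normalization (-0.43, adjusted p 0.177).

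The smallest 2-cell to 8-cell changes of the list were those of Dppa3, the maternal factor also called Stella (0.07 ± 0.17, limma adjusted p 0.747), Figla, a helix-loop-helix factor of the oocyte (0.14 ± 0.24, limma adjusted p 0.657), and Gpr3, the receptor that keeps the oocyte in meiotic arrest, which fell by 0.80 ± 0.22 (limma adjusted p 0.00315). Figla had already fallen from oocyte to 1-cell embryo on the deposited scale, by 1.70 ± 0.24 (limma adjusted p 2.15e-06). Its means were 144.6 in oocytes, 37.4 in 1-cell, 51.85 in 2-cell and 58.9 in 8-cell embryos. This low 2-cell signal limits the size of any later fall of Figla. Dppa3 read 4684 in 2-cell and 5025 in 8-cell embryos on average. The direction of Dppa3 turned with the scaling, to -0.85 under quantile normalization (limma adjusted p 2.15e-05) and -0.48 under the hybridization controls (limma adjusted p 0.129). From 8-cell embryo to blastocyst 2 of the 25 list genes were called higher and 16 lower (median -0.88, beside -0.21), but under the hybridization controls 2 were called higher and 3 lower.

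**Figure D5:**
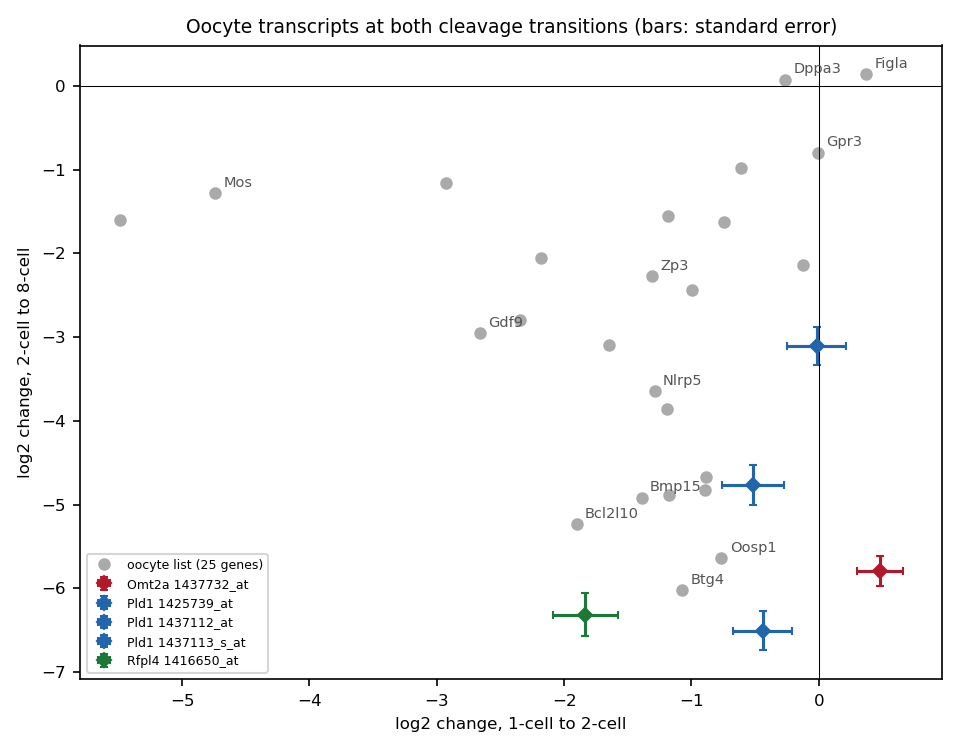
Log2 change from 2-cell to 8-cell against log2 change from 1-cell to 2-cell for 25 oocyte and maternal genes (grey) and the 5 member probe sets (coloured, with standard error bars). Omt2a lies farthest to the right, at 0.48, and low, at -5.79, while Mos (-4.74 and -1.28) had its larger change at the first step.

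A list of 40 genes held other genes named phospholipase D, activators of the enzyme and genes of phosphatidic acid metabolism. Of these, 36 were on the array and 34 tested. At 2-cell to 8-cell 7 were called higher, 13 lower and 14 neither, with a median of -0.06 beside 0.06 for all tested. That is 58.8% called, beside 48.4% of all tested probe sets (23.2% higher and 25.2% lower). Only the brightest probe set of a gene counts in the list, while every tested probe set counts in the share beside it. Under the hybridization controls, where the median of all tested moved to -0.38, 3 were called higher and 14 lower. Pld2, the other classical phospholipase D, fell by 0.86 ± 0.27 (limma adjusted p 0.0106), a call lost without 8-cell replicate 4 (-0.49, adjusted p 0.0790), and Pld3 rose by 2.66 ± 0.20. Pld3 had a mean of 26.65 in 2-cell embryos, under the mark of 33, and of 231 in 8-cell embryos. Phospholipase D activity was not measured. The largest falls were those of Lpin2, a phosphatidic acid phosphatase (-2.75 ± 0.20, with 3 tested probe sets from -2.75 to -0.16), the small GTPase gene Rac1 (-1.11 ± 0.15) and Dgke, a diacylglycerol kinase (-1.01 ± 0.27, with 2 probe sets from -3.31 to -1.01). After Pld3 the largest rises were those of Cyth2, an exchange factor for Arf proteins (1.35 ± 0.27), and Cdc42 (1.32 ± 0.18), whose 4 tested probe sets ran from -0.87 to 1.32. Pip5k1a, which makes the lipid cofactor of phospholipase D, fell by 0.89 ± 0.18, and the GTPase gene Rala by 0.78 ± 0.20. Arf6, an activator of the enzyme, was at 0.00 ± 0.15 (limma adjusted p 0.999), and at -0.76 with quantile normalization.

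From 8-cell embryo to blastocyst 11 of these 34 genes were called higher and 9 lower (58.8%, beside 45.0% of all tested), with a median of -0.05 beside -0.21, and under the hybridization controls, where the median of all tested moved to 0.64, 17 were called higher and 0 lower. The rises were led by Rala (1.61 ± 0.20), the lipid phosphatase gene Plpp1 (1.37 ± 0.22) and Arf4 (1.04 ± 0.29), which kept their direction and call under all settings for these probe sets. The 3 tested Arf4 probe sets ran from -0.33 to 1.04, and the 4 of Arf6, which is named next, from -0.92 to 0.41. Dgke fell by 1.16 ± 0.27, Pld4 by 1.09 ± 0.39, Pld2 by 1.05 ± 0.27 and Arf6 by 0.91 ± 0.15, and all 4 calls were lost under the hybridization controls (-0.21, -0.47, -0.14 and 0.16). The Pld4 call was also lost under 7 other settings, among them without 8-cell replicate 1 (-0.72) or 3 (-1.02) and without blastocyst replicate 3 (-0.91) or 4 (-0.97). Signal of Pld4 was low, at 43.6 ± 34.9 in 8-cell embryos and 11.1 ± 8.82 in blastocysts.

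Of 34 ubiquitin and cyclin B turnover genes chosen around Rfpl4, 27 were on the array and 26 tested. At 2-cell to 8-cell, 6 were called higher and 7 lower, a share near the 48.4% of all tested probe sets, with a median of 0.03 beside 0.06, and under the hybridization controls 2 were called higher and 11 lower. Ube2a, a ubiquitin-conjugating enzyme reported to bind Rfpl4, fell by 0.83 ± 0.20 (limma adjusted p 0.00122) and its close relative Ube2b was at -0.29 ± 0.17 (limma adjusted p 0.180). The proteasome subunit gene Psmb1, also reported to bind it, rose by 1.33 ± 0.26, with 3 tested probe sets from 0.21 to 1.33. The largest falls were those of the ubiquitin ligase scaffold Cul1 (-2.27 ± 0.18), the anaphase-promoting complex subunit Cdc27 (-1.99 ± 0.33) and Ube2d2a (-1.86 ± 0.23), and after the rise of Btrc, a substrate receptor (1.73 ± 0.27), and of Psmb1 came that of Ube2c (1.19 ± 0.20), which was not called under the hybridization controls (0.64, limma adjusted p 0.0724). Cdc27 had low signal, with a mean of 88.85 in 2-cell embryos and of 15.6 ± 16.3 in 8-cell embryos.

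From 8-cell embryo to blastocyst 9 of the 26 were called higher and 6 lower (57.7%, beside 45.0% of all tested), with a median of 0.11 beside -0.21, but 10 higher and 2 lower with centring on the array median, and 19 higher and 0 lower under the hybridization controls. Ccnb2, a cyclin B gene, rose by 1.50 ± 0.17, Ube2a by 1.05 ± 0.20 and Anapc13 by 1.05 ± 0.19, under every setting tried for these probe sets, while the 2 tested Ube2a probe sets ran from -0.20 to 1.05. Anapc7 fell by 1.57 ± 0.20, Ube2c by 0.94 ± 0.20 and Ube2b by 0.73 ± 0.17, calls that were lost under the hybridization controls (-0.51, 0.12 and 0.28), that of Ube2b also with centring on the array median (-0.47). Ccnb1 was not analysed here.

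The stage labels were checked against marker genes. The summed intensity of the oocyte markers Zp3, Gdf9, Bmp15 and Mos ran from 15687 to 18074 in oocytes and from 88.7 to 120 in blastocysts, the 2-cell markers Zfp352 and Tdpoz1 from 2016 to 3127 in 2-cell embryos and at most 119 at any other stage, and the blastocyst markers Cdx2, Krt8, Krt18 and Nanog from 9780 to 11850 in blastocysts. The oocyte markers still summed to between 11523 and 13982 in 1-cell embryos, and the blastocyst markers to between 786 and 1592 in 8-cell embryos. No markers particular to 1-cell or 8-cell embryos were used. Markers of cumulus or granulosa cells (8 of 10 on the array) summed to between 144.5 and 508.5 on every array. Markers of oviduct, blood and stroma (5 of 6 on the array) summed to between 106 and 237 in oocytes and 1-cell embryos, 360 and 879 in 2-cell embryos, 155 and 3229 in 8-cell embryos and 109 and 182 in blastocysts. The oviduct gene Ovgp1 read 764.6, 614.4, 381.1 and 219.6 in 2-cell embryos and at most 111.6 in oocytes and 1-cell embryos, so it was higher at the stage where Omt2a was highest, and its part in that level was not tested. In 8-cell embryos 8-cell replicate 2 read 3105.4 for Ovgp1 where the other 8-cell arrays read 193.5, 113.4 and 46.5. The other markers of that set were not highest on this array, where Col1a1 read 37.6, Ptprc 10, Col3a1 20.5 and Hba-a1 55.2. This array also had the highest 8-cell value of Omt2a, 64.2, but not of Omt2b, which read 85.4. The part of Ovgp1 in the Omt2a value was not tested. Without this array the change of Omt2a was -5.96 from 2-cell to 8-cell and -1.47 from 8-cell embryo to blastocyst (limma adjusted p 2.28e-07). The ratio of 3′ to 5′ actin probe sets, a sign of how complete the amplified RNA was, stood at 4.74 ± 0.364 in oocytes, 4.24 ± 1.20 in 1-cell, 4.63 ± 0.622 in 2-cell and 3.67 ± 0.234 in 8-cell embryos and 1.99 ± 0.325 in blastocysts, and its part in the changes was not tested.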

How the data were processed

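RNA of 5 stages was measured on 20 arrays, 4 a stage, which limits the precision. The deposited values are a linear intensity per probe set that the authors scaled to a common trimmed mean, judged from the values (150.05 to 150.08 on every array once the outer 2% on both sides are dropped). Which software, background correction or detection calls lie behind them is not given in the sources used here. Groups come from the stage in the titles. Nothing says that replicates came from separate collections, so p-values measure only the spread between these arrays, which may be technical and is pooled over all 5 stages. No pair of the 190 pairs of arrays was identical.

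After 64 control probe sets were left out, 22626 remained: 20380 with 1 symbol in GEO's platform annotation, 691 with several and 1555 with none. Values were taken as log2(intensity + 12.15), where the constant is the pooled median of 48.6 divided by 4, which understates changes of dim probe sets. The 17193 probe sets whose intensity exceeded 33 (40th percentile of all values) on 4 or more arrays were fitted in limma 3.58.1 (R 4.3.3; lmFit, eBayes with trend, 15 residual degrees of freedom) with all 5 stages in 1 model, two-sided, and p-values were Benjamini-Hochberg adjusted per transition with a threshold of 0.05. The script was tested on simulated data. A gene with several probe sets is represented in lists by its brightest one on average over log2 values. The shares over all tested count every probe set, dim ones included, so shares of a list and of all tested are of unlike sets.

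The members, lists and named genes were chosen with earlier results of these data known. Named genes are the 5 most correlated with each member, fixed pathway genes, and of each list the largest called rises and falls or, for oocyte genes, the 3 largest falls and 3 smallest changes at 2-cell to 8-cell. Alternatives were 3 other scalings, 2 other constants (3.0375 and 48.6), no filter or a filter at 71.8, the compared stages alone, no trend, the replicate number as a block, and each array left out.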

Additional observations from a re-analysis of the deposited data

Results flagged for a closer look

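Of 25 groups of 4 arrays, 5 member probe sets at 5 stages, 1 held an array far from the others: 8-cell replicate 2 read 64.2 for Omt2a, where the other 8-cell arrays read 33.8 to 38.3. The gap to the nearest value was 0.852 of the whole range, above Dixon's critical value for 4 samples, which chance passes in about 1 of 20 groups. The same array read 3105.4 for Ovgp1, an oviduct gene, but was not the highest 8-cell array for Col1a1, Ptprc, Col3a1 or Hba-a1. The part of Ovgp1 in the Omt2a value was not tested.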

How the results depend on the processing

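Of 18 alternative settings a result, the count of probe sets called at each transition stayed within 1.5 times of the reported one (4679 to 7519 at oocyte to 1-cell, 5760 to 8180 at 1-cell to 2-cell, 6931 to 8924 at 2-cell to 8-cell, 6553 to 8118 at 8-cell to blastocyst). The split between higher and lower calls did not: under the hybridization controls 54 of 7519 were higher at oocyte to 1-cell, 3757 of 5760 at 1-cell to 2-cell, 1520 of 6931 at 2-cell to 8-cell and 7618 of 7990 at 8-cell to blastocyst, where centring on the array median gave 4221 of 6587. The 2-cell to 8-cell change of the members ranged from -6.24 to -5.05 for Omt2a, -7.33 to -5.08 for Pld1 1437113_s_at and -7.49 to -4.69 for Rfpl4. The 8-cell to blastocyst fall of Omt2a kept its direction and call in all 18, with limma adjusted p from 2.08e-08 to 0.00293. The oocyte list had 5 genes called at that step under the hybridization controls. Pld1 1437113_s_at ranged from 0.43 to 0.97 with 1 array left out, and was not called with the larger constant (0.30, limma adjusted p 0.122) or the compared stages alone (0.65, 0.124). Pld1 1437112_at turned to 0.083 with quantile normalization, 0.018 with array medians, 0.16 with the hybridization controls and ranged from -0.0814 to 0.0075 with 1 array left out (5.7e-04 without 8-cell replicate 1), and Pld1 1425739_at turned to 0.071 with the hybridization controls. Rfpl4 was called only with the smaller constant (-0.91, limma adjusted p 0.0157). Among list genes, 2-cell to 8-cell changes turned for Arf6 (-0.76 with quantile normalization, -0.55 with the hybridization controls, -0.0727 to 0.0829 with 1 array left out), Dppa3 (-0.85, -0.48, and -0.0259 to 0.235 with 1 array left out) and Figla (-0.29 with the hybridization controls, -0.0224 to 0.309 with 1 array left out). At 8-cell to blastocyst the hybridization controls turned Arf6 (0.16), Pip5k1a (0.66), Pld3 (0.92, and 0.17 with array medians), Ube2b (0.28) and Ube2c (0.12). The cause was not tested.

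With the replicate number as a block, Omt2a had a limma adjusted p of 8.29e-08 at 8-cell to blastocyst, Pld1 1437113_s_at 0.0213 and Rfpl4 0.232, and 5402, 7698, 8309 and 7686 probe sets were called, so the block changed no member's call. Same-numbered arrays of different stages had correlations of their deviations from -0.161 to 0.178, over 0.1 in 6 of 40 pairs. Their mean was 0.013, beside -0.0042 for arrays with other numbers, and 7 of 20 arrays correlated best with their own number. The labels state no pairing, and correlations of this size cannot show whether there was one. Low signal limits the last transition: Rfpl4 and 2 of 3 Pld1 probe sets were under 33 on all 8 of its arrays.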

Other observations

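Among the 4 2-cell arrays, replicate 1 was the highest 2-cell array on 5 of 5 member probe sets, on 14 of the 25 oocyte list genes (56%) and on 25.8% of the 17193 tested probe sets. Replicate 3 was the lowest on 3 of 5 member probe sets, on 11 of the 25 list genes (44%) and on 31.1% of all tested. Rfpl4 read 2773 against 680.9 on these arrays, and Pld1 1437112_at read 598.4 against 263. The order of the other arrays differed between probe sets. The pattern was noticed after the values were seen and was not tested, and the probe sets share their arrays. Ovgp1, an oviduct gene, was also highest on replicate 1 (764.6, against 614.4, 381.1 and 219.6), but lowest on replicate 4. The other markers of oviduct, blood and stroma were not highest on replicate 1, where Hba-a1 read 40.1, Col1a1 43.6, Col3a1 21.2 and Ptprc 9. The part of Ovgp1 in the pattern was not tested.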
